A study of Mus musculus with 4 samples.

Results

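The 10 genes described here encode the proteins that process U6 RNA after it is made: Mettl16, Usb1, Ssb and the members of the ring from Lsm2 to Lsm8. They were chosen by symbol, and each symbol matched 1 of the 50600 gene models in every library. The data are RNA immunoprecipitation (RIP) libraries from testes of C57BL/6 mice aged 8 weeks, in which an antibody on beads pulls a protein and its RNAs out of a lysate. They were made as small RNA libraries of 15 to 300 nt, which is shorter than the gene models of the 10 members. There were 2 groups of 2 libraries: RIP with an antibody to LARP7, and RIP with IgG, which measures the RNA that sticks without a specific antibody. No genotype, transgene or treatment is given for any group, and all 4 libraries come from the same strain, tissue and age. The study calls the 2 libraries of a group biological replicates but does not say that they came from separate animals. The spread behind each p-value is that of these libraries and may be technical.

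U6 is the spliceosomal RNA made by RNA polymerase III. La (gene Ssb) binds the run of uridines at the end of new U6, the exonuclease USB1 trims that tail, and the LSm ring of LSM2 to LSM8 then binds the trimmed tail and helps U6 join U4. METTL16 places a methyl group on an adenosine of U6. LARP7 is a relative of La known to hold 7SK RNA and to bring U6 to the snoRNAs that guide its ribose methylation. The counts below are those assigned to the gene models of these proteins, not to U6 RNA, and a RIP level is a level among precipitated RNAs, not expression in the testis.

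Expected counts, which are RSEM's estimates of the reads per gene model, summed to 4411271 to 6994514 per library. Protein-coding models made up 14.9% and 20.4% of a LARP7 library and 42.3% and 38.3% of an IgG library. Scalings differ in how they treat such a shift, and 3 were compared. TMM, which assumes that most genes tested do not move, gave factors of 0.558 and 0.673 with the LARP7 antibody, and of 1.85 and 1.44 with IgG. Over all genes tested the log2 fold changes had a median of -1.47 with library totals and -0.05 with TMM. With the totals over protein-coding models the median was -0.26. Levels are given as CPM, counts scaled to a library size of 1000000, with TMM-scaled library sizes unless another scale is named. Of 28 marker genes of testis cell types, summed CPM of library totals were 143 to 186 for the elongating spermatid list with the LARP7 antibody and 1330 to 1470 with IgG. The spermatocyte list had 53.2 to 55.1 against 129 to 177, the round spermatid list 12.4 to 13.7 against 80.2 to 100, and the Sertoli list 21.1 to 22.1 against 88.4 to 126. The Leydig list had 19.4 to 24.3 against 61 to 67.3, spermatogonia 6.79 to 10.2 against 8.22 to 13.8, and blood 0.923 to 2.02 against 3.4 to 4.58. Only Hbb-bt of the 28 markers was at 0 counts in all 4 libraries. These values are shares of precipitated RNA from the same tissue and do not measure numbers of cells. On library totals, 70.3% of tested protein-coding genes had both LARP7 libraries below both IgG libraries. The part of these markers in the results below was not tested.

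Mettl16 was the single member that rose with the LARP7 antibody under TMM scaling, by 4.4-fold. No other member passed the threshold in either direction. Of the 10 members, 8 had enough counts to be tested, so 1 was called higher and 0 lower (edgeR quasi-likelihood test, adjusted p under 0.05 over 12234 genes). At an unadjusted p under 0.05, 2 were higher (Mettl16 and Usb1) and 0 lower. No share over all genes was taken at that threshold, so these 2 have no background. DESeq2 also called 1 member higher and 0 lower, where it called 1707 of all genes higher and 729 lower. By edgeR at the adjusted threshold, 14.5% of all genes tested were called higher and 9.69% lower. Of the 9932 protein-coding genes, 11% were called higher and 10.5% lower. A share of 1 in 8 members is thus close to that found across the table. Both LARP7 libraries lay above both IgG libraries for Mettl16 and Usb1 and below them for Ssb and Lsm2, and the groups overlapped for the other 6. Across tested protein-coding genes, 28.3% had the LARP7 libraries on top and 39.5% had them below. The median log2 fold change of the 8 tested members was 0.31, against -0.25 over protein-coding genes.

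**Figure D1:**
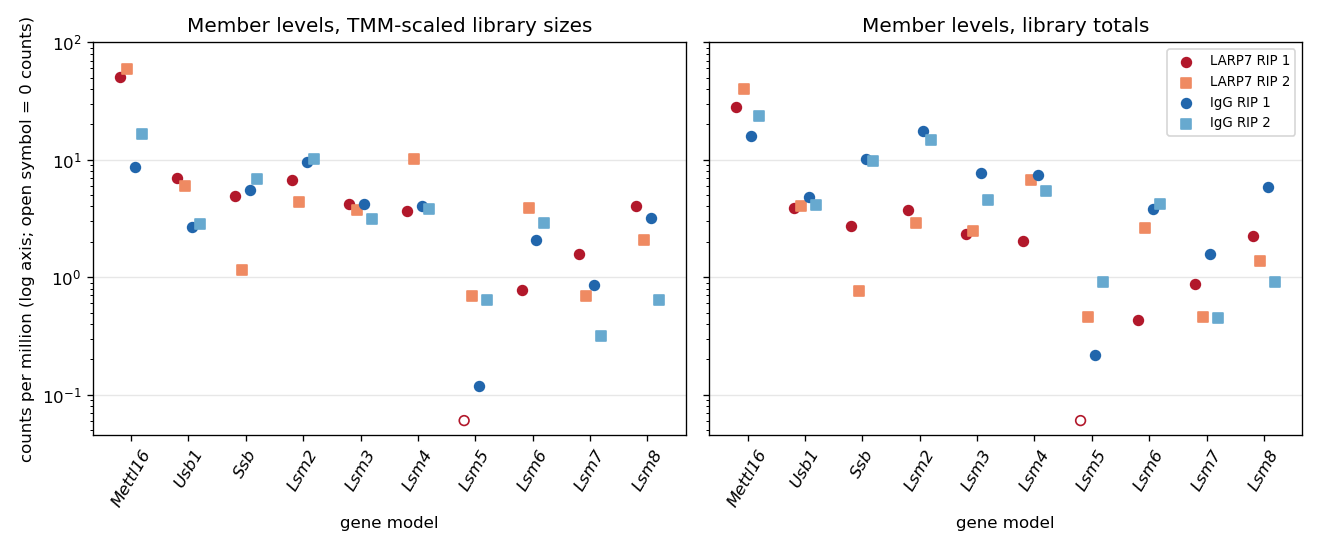
Levels of the 10 members in each library, in CPM on a log axis, with TMM-scaled library sizes (left) and library totals (right); each point is 1 library and an open symbol is 0 counts. With TMM the LARP7 libraries stand above the IgG libraries for Mettl16 (50.6 and 59.2 against 8.71 and 16.5) and Usb1, while with library totals Usb1, Ssb, Lsm2, Lsm3 and Lsm6 lie lower in both LARP7 libraries.

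The U6 processing genes had log2 fold changes on both sides of 0, and 1 of the 3 passed the test. Mettl16 (ENSMUSG00000010554.14, chromosome 11, 74770815 to 74826855 of GRCm38.p6) encodes the U6 methyltransferase. It had 194.58 and 257.84 expected counts with the LARP7 antibody and 111.44 and 104.44 with IgG, which are 50.6 and 59.2 CPM against 8.71 and 16.5 CPM. Both LARP7 libraries were thus well above both IgG libraries, and IgG replicate 2 lay above IgG replicate 1. The group means were 54.9 ± 6.09 and 12.6 ± 5.53 CPM (SD, n = 2 each; log2 fold change 2.14, SE 0.47, 95% interval 1.11 to 3.16, edgeR adjusted p = 0.013). With protein-coding totals the log2 fold change was 1.96 (SE 0.47, edgeR adjusted p = 0.0123). With library totals the levels were 28.1 and 39.7 CPM against 15.9 and 23.7 CPM, and the log2 fold change of 0.78 (95% interval -0.20 to 1.77) was not called (edgeR adjusted p = 0.183). The LARP7 libraries remained on top under library totals, a placement seen in 6.3% of tested protein-coding genes; 70.3% had them below. The call was also lost without IgG replicate 1 (log2 fold change 1.74). TPM divides counts by model length and then scales these per-length values to a fixed sum in each library, with no TMM factor. On that scale the direction turned for Mettl16 (-0.33 with limma on log2(TPM + 0.1), adjusted p = 0.598). Over all genes tested, the median log2 fold change there was -1.25, beside -1.47 with library totals. The added 0.1 pulls the fold changes of models with low TPM toward 0, so these medians are not directly comparable. Over all 13 alternatives the adjusted p of Mettl16 ran from 0.000608 to 0.63.

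Usb1 (ENSMUSG00000031792.15, chromosome 8, 95331413 to 95347513), the exonuclease that trims the U6 tail, had 27 and 26 counts with the LARP7 antibody and 34 and 18 with IgG. In TMM-scaled CPM these were 7.02 and 5.97 against 2.66 and 2.85, so the groups did not overlap and the replicates lay close together. The log2 fold change of 1.23 (SE 0.53, 95% interval 0.06 to 2.41) missed the threshold after adjustment over all genes (edgeR adjusted p = 0.109). With library totals it was -0.19 (SE 0.71), with 3.90 and 4.00 CPM against 4.86 and 4.08 CPM.

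Ssb (ENSMUSG00000068882.13, chromosome 2, 69861562 to 69871846) encodes La, which binds newly made RNA polymerase III transcripts. It had 19 and 5 counts with the LARP7 antibody and 71 and 43 with IgG, or 4.94 and 1.15 CPM against 5.55 and 6.80 CPM. The LARP7 libraries were both lower, but replicate 1 lay just under the IgG range and replicate 2 far below it. With TMM the log2 fold change was -1.03 (SE 0.66, 95% interval -2.49 to 0.43, edgeR adjusted p = 0.27). It was -2.42 without LARP7 replicate 1 and -0.31 without LARP7 replicate 2, neither of which was called. With library totals Ssb was lower (log2 fold change -2.49, SE 0.70, edgeR adjusted p = 0.00131), as 1 of 2 members called there.

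The mRNAs of the LSm ring, the heteromer that holds the end of mature U6, had no call in either direction under TMM. The 5 ring genes tested ran from -0.85 to 0.81 in log2 fold change, with a median of 0.07. Lsm2 (chromosome 17, 34981854 to 34985891) had 25.95 and 18.91 counts with the LARP7 antibody and 123.69 and 64.67 with IgG, the most of the ring with IgG. In CPM these were 6.74 and 4.34 against 9.66 and 10.2, so both LARP7 libraries were lower. The log2 fold change was -0.85 (SE 0.46, 95% interval -1.87 to 0.18, edgeR adjusted p = 0.196). Lsm2 fell with library totals (-2.28, SE 0.59, edgeR adjusted p = 0.000563).

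Lsm3 (chromosome 6, 91516035 to 91522620) had 4.16 and 3.72 CPM with the LARP7 antibody and 4.23 and 3.16 with IgG. These were nearly equal and interleaved, with a log2 fold change of 0.07 (SE 0.54, 95% interval -1.12 to 1.26). Its sign changed with protein-coding totals (-0.14) and library totals (-1.37). Lsm4 (chromosome 8, 70673231 to 70678752) had 3.64 and 10.1 CPM against 4.06 and 3.80 CPM, so that LARP7 replicate 2 alone stood out. Its log2 fold change was 0.81 (SE 0.58), and -0.11 without that library; with library totals it was -0.56. Lsm6 (chromosome 8, 78804868 to 78821152) had 0.782 and 3.91 CPM against 2.08 and 2.91 CPM, with the LARP7 libraries on either side of the IgG libraries (log2 fold change -0.05, SE 0.85). Lsm8 (chromosome 6, 18848635 to 18854052) is the subunit that makes the nuclear ring differ from the cytoplasmic ring, in which LSM1 takes its place. It had 4.01 and 2.07 CPM against 3.19 and 0.633 CPM (log2 fold change 0.56, SE 0.84; -0.97 with library totals). The intervals of Lsm6 (-1.91 to 1.81) and Lsm8 (-1.30 to 2.42) leave room for large changes in both directions.

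Lsm5 (chromosome 6, 56701063 to 56704699) and Lsm7 (chromosome 10, 80852825 to 80855209) had too few counts for the filter. Lsm5 had 0 and 3 counts with the LARP7 antibody and 1.52 and 4 with IgG. The 0 in LARP7 replicate 1 allows up to 3 counts, or 0.78 CPM, for counting error alone. Lsm7 had 6 and 3 counts against 11 and 2. No difference was detectable for either at this depth. Without the filter their log2 fold changes were -0.18 (SE 2.46) and 0.78 (SE 1.59), with edgeR adjusted p of 0.97 and 0.783.

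**Figure D2:**
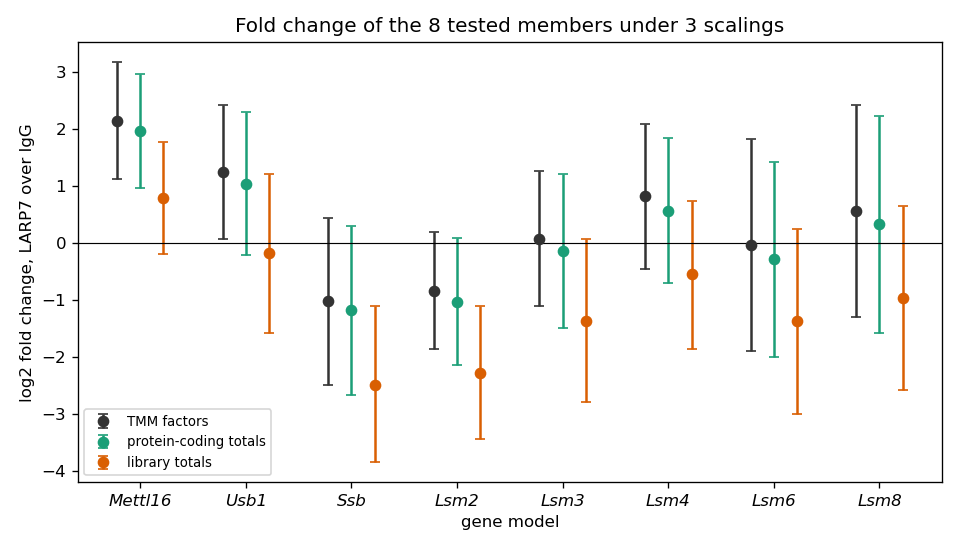
Log2 fold change, LARP7 over IgG, of the 8 tested members from edgeR with TMM factors, totals over protein-coding models and library totals; bars are 95% intervals of the fit with 2 libraries a group. The interval of Mettl16 lies above 0 with TMM and protein-coding totals and crosses 0 with library totals, while those of Ssb and Lsm2 lie below 0 with library totals alone.

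With library totals 0 of the 8 members were called higher and 2 lower (Ssb and Lsm2), by edgeR. The same counts, 0 higher and 2 lower, had an unadjusted p under 0.05, again with no share over all genes at that threshold. Mettl16 was the 1 member with a positive log2 fold change. Of all genes tested, 3.95% were called higher and 47.1% lower under this scaling, and of protein-coding genes 1.99% and 52.1%. The 2 of 8 members called lower are thus no excess over that background. Their median was -1.17, against -1.67 over protein-coding genes. With protein-coding totals 1 member was called higher and 0 lower by edgeR, where 12.6% and 12.7% of all genes and 9.03% and 13.9% of protein-coding genes were called. The members' median was 0.09 there, against -0.45 over protein-coding genes. Most member TPM lay below 1, so adding 1 pulls their log2 fold changes toward 0. On the TPM scale with limma, 0 members were higher and 0 lower on log2(TPM + 1) (0.0409% and 0.155% of all genes). On log2(TPM + 0.1), 0 were higher and 3 lower, namely Ssb, Lsm2 and Lsm3 (0.907% and 55.8% of all genes). Without IgG replicate 1 no member was called (12.2% of all genes higher and 6.28% lower by edgeR). Mettl16 was the 1 member called without LARP7 replicate 1 (9.7% and 6.29% of all genes), LARP7 replicate 2 (4.62% and 1.38%) or IgG replicate 2 (15.2% and 6.32%), and with the replicate as a block (17.1% and 11.5%).

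Ratios between members within a library do not depend on the scaling. Mettl16 took 60.6% and 64.5% of the summed member counts with the LARP7 antibody and 21.2% and 34.5% with IgG. Per count of the other 9 members together, Mettl16 had 1.54 and 1.81 counts against 0.269 and 0.527. The share was thus higher in both LARP7 libraries whichever scaling is used. Usb1 had 0.336 and 0.234 counts per count of the ring genes with the LARP7 antibody, and 0.110 and 0.131 with IgG, also without overlap. Ssb had 0.236 and 0.045 against 0.229 and 0.314, so the low ratio rested on LARP7 replicate 2. Within the ring, Lsm2 made up 32.3% and 17% of counts in the LARP7 libraries and 39.9% and 47.2% with IgG. Lsm4 held 17.4% and 39.6% against 16.8% and 17.5%, again set apart by LARP7 replicate 2. No test was made on these ratios, since 2 libraries against 2 cannot give an exact two-sided permutation p below 0.333.

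The summed levels show what Mettl16 adds. All 10 members together had 83.4 and 91.8 CPM with the LARP7 antibody and 41.1 and 47.9 with IgG. Without Mettl16 the other 9 had 32.8 and 32.6 CPM against 32.4 and 31.3 CPM, with all 4 libraries close together. With library totals these 9 had 18.3 and 21.9 CPM against 59.3 and 44.9 CPM, and the LARP7 libraries lay below. As CPM of protein-coding totals they had 122 and 107 against 140 and 117, and the groups overlapped.

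**Figure D3:**
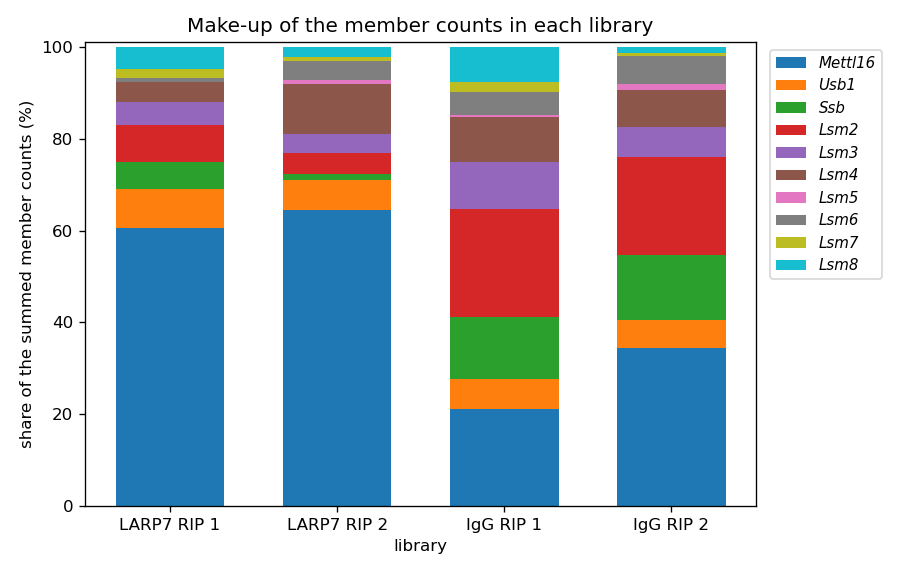
Share of the summed member counts (%) that each member took in each library, 1 bar a library; a share within a library does not depend on the scaling. Mettl16 takes 60.6% and 64.5% in the LARP7 libraries and 21.2% and 34.5% in the IgG libraries. Ssb, Lsm2, Lsm3 and Lsm6 take less in both LARP7 libraries, and Usb1 slightly more. Shares in a library sum to the whole, so a larger Mettl16 share lowers the sum of the others.

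Mettl16 also stood apart from the other members in its gene model. RSEM's length of a model is averaged over its isoforms and so differs between libraries. The Mettl16 model, with 6 transcripts, had a mean length of 11461 nt over the 4 libraries (12584, 11757.47, 8917.78 and 12584 nt). The other members ran from 407 nt for Lsm5 to 1937 nt for Lsm6. Ssb and Lsm6 fell in the second quartile of length among tested protein-coding genes and the other tested members save Mettl16 in the first. Long models were called higher more often: 19.5% of the longest quartile (3608 nt and over) were called higher with TMM and 4.87% lower, with a median log2 fold change of 0.23. The shortest quartile had 7.41% called higher, 13.2% called lower and a median of -0.46. Of the 108 tested models of 10000 nt or more, 30.6% were called higher. Across these 9932 genes, which share the same 4 libraries, log length and log2 fold change had a Pearson r of 0.183 and a Spearman rho of 0.19. Mettl16 lay at percentile 93.7 of all tested protein-coding genes by log2 fold change and at percentile 88.8 of its length quartile. Usb1, in the shortest quartile, lay at percentile 86.4 there.

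**Figure D4:**
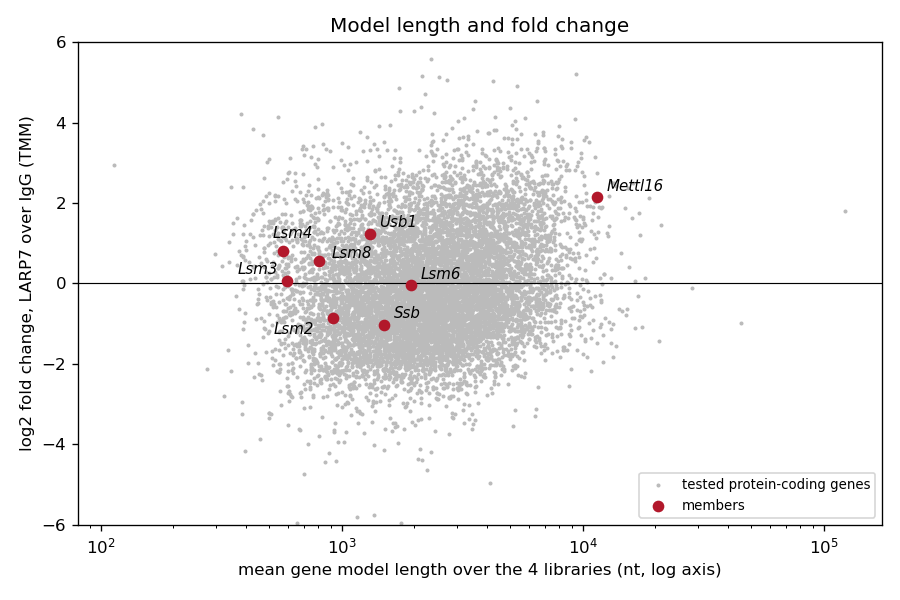
Mean gene model length (nt, log axis) against log2 fold change, LARP7 over IgG, with TMM, for the 9932 tested protein-coding genes (grey) and the 8 tested members (red); 36 grey points lie beyond the axis limits. Mettl16, at 11461 nt and 2.14, is the only member in the longest quartile.

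The bounds of Mettl16 in RefSeq also hold a small RNA gene, the snoRNA LOC115487898 of 141 nt (chromosome 11, 74779173 to 74779313), 8358 bp from the lower coordinate of the gene. The length of this snoRNA lies within the 15 to 300 nt range of the libraries. No other member has a small RNA gene within its bounds. That symbol is not among those of the deposited tables, and whether reads of this RNA were counted for Mettl16 was not tested. Counts per gene model also do not show which of its 6 transcripts the reads came from, or whether any came from intron sequence. Small RNA genes of all classes, such as snoRNA, snRNA and miRNA, were pooled for the next shares, which do not describe snoRNA hosts alone. Among the 874 tested protein-coding genes with a small RNA gene in their bounds, 10.8% were called higher, against 11.1% of the 9058 without. In the longest quartile, which holds Mettl16, it was 14.4% of 313 genes with one and 20.2% of 2170 without. RSEM's posterior SD of the Mettl16 count was at most 0.0195 of the count. For Usb1, Ssb and Lsm4 it was 0, and for Lsm2 it reached 0.148. The bounds of Usb1 overlap those of Zfp319 by 399 bp and those of Ssb overlap Mettl5 by 652 bp. How the counting used strand is not given in the sources used here, so reads from these stretches may not be told apart.

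Per length, as TPM of the authors, the order of the members differed between the groups. Lsm2 was the highest with IgG (1.53 ± 0.863 TPM, SD, n = 2), followed by Lsm4 (0.975 ± 0.658), Lsm3 (0.885 ± 0.488) and Ssb (0.635 ± 0.276). Each of these lay within the spread of its neighbours. With the LARP7 antibody Lsm4 was the highest on average (0.08 and 0.85 TPM), a place set by replicate 2. Lsm3 (0.150 ± 0.0566) and Usb1 (0.145 ± 0.0919) came next and did not differ beyond their spread. Mettl16 had 0.05 and 0.14 TPM with the LARP7 antibody and 0.17 and 0.11 with IgG, where it ranked 5 of 10 by its mean with the LARP7 antibody and 8 of 10 with IgG. Ssb had 0.04 and 0.02 against 0.83 and 0.44.

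Other genes that act on U6 were compared as a list of 9: Tut1, the uridylyltransferase of its tail, Larp7, the capping enzyme Mepce, the U6 chaperone Sart3, and Prpf3, Prpf4, Ppih, Snu13 and Prpf31 of the U4/U6 particle. All 9 were tested, 0 were higher and 1 lower with TMM, with a median log2 fold change of -0.12. The gene lower was Larp7, the mRNA of the precipitated protein, at 14.5 and 8.95 CPM against 35.7 and 29 CPM with a log2 fold change of -1.46 (SE 0.41; adjusted p of 0.0291 by edgeR). The bounds of Larp7 also hold small RNA genes, Mir302a to Mir302d and Mir367, whose part in its count was not tested. Leaving out LARP7 replicate 2 (-1.15, edgeR adjusted p = 0.153), IgG replicate 1 (-1.3, 0.116) or IgG replicate 2 (-1.55, 0.0526) ended that call, and its adjusted p ran from 1.59e-06 to 0.153 over 13 alternatives. Under library totals 4 of these 9 were lower and 0 higher (median -1.5), where 52.1% of protein-coding genes were called lower.

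Of 6 other LSm genes, 5 were tested and 1 rose with TMM, where 11% of tested protein-coding genes were called higher. Lsm11, which encodes a subunit of the U7 ring in histone pre-mRNA processing, had 12.4 and 26.8 CPM with the LARP7 antibody and 2.84 and 4.14 with IgG. Both LARP7 libraries were well above the IgG libraries (log2 fold change 2.52, SE 0.51, edgeR adjusted p = 0.0104). Its model is also long, with a mean of 6111 nt. The call was lost with library totals (1.17, edgeR adjusted p = 0.0796) and without LARP7 replicate 2 (1.86, edgeR adjusted p = 0.0775). On the TPM scale with limma the log2 fold change was 0.01 on log2(TPM + 1) and 0.03 on log2(TPM + 0.1), neither called. The TPM of Lsm11 were 0.03 and 0.13 with the LARP7 antibody and 0.08 and 0.06 with IgG. The groups thus overlapped on this scale before 1 or 0.1 was added. The added 1 or 0.1 further pulls differences between such low values toward 0. The adjusted p of Lsm11 ran from 7.97e-05 to 0.961 over 13 alternatives, by edgeR, DESeq2 or limma. These 5 had a median of 0.14; under library totals 2 were lower and 0 higher, against the same 52.1% of protein-coding genes lower.

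The Sm genes, whose products form the ring on the other spliceosomal RNAs, had 7 of 8 members tested. None of them was called in either direction by edgeR with TMM, where 11% of protein-coding genes were called higher and 10.5% lower. The Sm median log2 fold change was 0.96, against -0.25 over protein-coding genes, and 5 of the 7 were above 0. The highest was Snrpf, at 2.20 and 6.18 CPM against 1.62 and 0 CPM (log2 fold change 2.15, SE 1.16, edgeR adjusted p = 0.185), while Snrpd1 was the lowest (-0.79, SE 0.77). Snrpf had 0 counts in IgG replicate 2, and RSEM's posterior SD reached 0.64 of its count. It was called without IgG replicate 1 (edgeR adjusted p = 0.000614, range over alternatives 0.000614 to 0.986), where the fitted value rests on that 0. Under library totals 1 of the 7 was lower and 0 higher, again beside 52.1% of protein-coding genes lower.

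The gene models whose pattern over the 4 libraries lay closest to the median pattern of the tested members were 1700017B05Rik, Mphosph9 and Tbc1d8, by Euclidean distance between centred log2 CPM profiles (0.124, 0.13 and 0.133). The members themselves lay farther from that median, from 0.296 for Lsm3 to 2.05 for Mettl16 and 2.1 for Ssb. The median pattern is thus that of few members, and with 4 libraries many genes have such a profile.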

How the data were processed

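Per the submitters' processing notes, reads were handled with cutadapt, Bowtie2 and RSEM on mm10; no source used here gives their versions, settings or use of strand. Per the labels' protocols, lysates in 150 mM NaCl were kept 4 h with antibody, washed in 500 mM NaCl, and made into small RNA libraries of 15 to 300 nt. The deposited tables hold, per file headers, the expected count (estimated counts, not always whole), TPM of the authors, and other values per model: the posterior SD and length. Gene names are those of the files; 35715 (70.6%) matched the RefSeq table of GRCm38.p6, which gave biotypes and coordinates. Counts were rounded and tested with edgeR 4.0.16 in R 4.3.3: filterByExpr (minimum count 10), TMM, robust quasi-likelihood F tests, Benjamini-Hochberg over 12234 genes, threshold 0.05. SE is the log2 fold change over the square root of F. Library totals in the fit are over tested genes. Alternatives used DESeq2 1.42.0, limma 3.58.1 on log2(TPM + 1) and log2(TPM + 0.1), other scalings, no filter, unrounded counts, a replicate block and leaving out each library, where the lone sample of a group is assumed to vary like the other group. All 10 members were named, with listed genes past the threshold or, if none was, the highest and lowest of a list, and the 3 closest profiles. The members and lists were chosen with earlier results of these data known. Tested on counts simulated for 11366 genes of this comparison, the fit found 0 of 44 2-fold, 12 of 57 4-fold and 38 of 47 8-fold changes, and called 2 of 11175 unchanged genes. The simulation used a common dispersion and means set by library totals, with no composition shift, so these rates do not cover the choice of scaling. Replicates were distinct libraries (chi-square per degree of freedom 162 and 64.5).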

Additional observations from a re-analysis of the deposited data

How the results depend on the processing

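The count of members called higher (1, Mettl16) became 0 with library totals and with limma on either TPM scale, and ranged from 0 to 1 when each library was left out. The count called lower (0) became 2 with library totals and 3 (Ssb, Lsm2 and Lsm3) with limma on log2(TPM + 0.1), and stayed at 0 when a library was left out. Over all genes, 1772 higher and 1185 lower became 483 and 5759 with library totals, 5 and 19 with limma on log2(TPM + 1), 111 and 6823 on log2(TPM + 0.1), and 729 lower with DESeq2. Leaving out each library gave 660 to 2138 higher and 197 to 922 lower, the lowest of both without LARP7 replicate 2. The share of calls that were higher was 59.9% with TMM, 49.7% with protein-coding totals, 7.74% with library totals and 70.1% with DESeq2.

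Signs turned as follows, with no call unless said. With library totals, log2 fold changes were -0.19 for Usb1, -1.37 for Lsm3, -0.56 for Lsm4 and -0.97 for Lsm8. On log2(TPM + 1) the added 1 exceeds most member TPM and pulls values toward 0. With limma there, log2 fold changes were -0.06 for Mettl16, -0.13 for Usb1, -0.69 for Lsm3, -0.44 for Lsm4, -0.32 for Lsm8 and -0.04 for Snrpf. On log2(TPM + 0.1) they were -0.33, -0.52, -1.90 (called, adjusted p = 0.0197), -1.23 and -1.03 for Mettl16, Usb1, Lsm3, Lsm4 and Lsm8. Lsm3 was -0.14 with protein-coding totals and -0.01 with no filter, and Lsm6 0.02 with RLE factors and 0.01 with DESeq2. With a library left out, Lsm3 ran from -0.06 to 0.30, Lsm4 from -0.11 to 1.34, Lsm6 from -1.64 to 0.65 and Lsm8 from -0.06 to 2.19. A change of scaling moves all genes of a library by one factor. This accounts for the turned signs under library totals, protein-coding totals and RLE factors. The cause of the others was not tested. Replicate numbers are shared between groups, but nothing ties them to an animal or day; the difference between replicates correlated at 0.23 between groups across genes. With the replicate as a block, 1 member was higher and 0 lower, 2088 genes were higher and 1405 lower, and Mettl16 had 2.19 (edgeR adjusted p = 0.00435). The block changed no call among the tested members, Larp7, Lsm11, Snrpf, Snrpd1, Larp4b and Larp1. Few counts limit Lsm5 to Lsm8 most.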

Other observations

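La-related proteins share the RNA-binding module of La and LARP7. Of 5 listed genes of this family (Larp1, Larp1b, Larp4, Larp4b and Larp6), 4 were tested, and with TMM 0 were higher and 0 lower, with a median log2 fold change of -0.57. All 4 had negative values, and their LARP7 libraries lay below their IgG libraries, as in 39.5% of tested protein-coding genes, whose median was -0.25. The lowest was Larp1, a regulator of ribosomal protein mRNAs, at 59.5 and 49.2 CPM with the LARP7 antibody against 99.1 and 118 CPM. Its log2 fold change of -1 (SE 0.48) was not called (adjusted p of 0.151 by edgeR). The highest was Larp4b at -0.29 (SE 0.44). With library totals 0 were higher and 4 lower by edgeR, where 52.1% of protein-coding genes were called lower. Larp6 had 0 counts in both LARP7 libraries and 10 and 4 with IgG, too few to test.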
